A study of Homo sapiens with 9 samples.

Results

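The genes described here are 7 matrix metalloproteases, MMP1, MMP2, MMP7, MMP9, MMP10, MMP14 and MMP15, and 3 tissue inhibitors of metalloproteases, TIMP1, TIMP2 and TIMP3. They were taken by symbol from a list drawn up with earlier results of these data known, and make 10 of the 58237 annotated genes to which reads could be assigned. RNA-seq of total RNA was done in the human line H358, derived from a non-small cell lung carcinoma and grown in RPMI medium with serum. There were 3 groups of 3 libraries: unedited parental cells, cells in which the BRG1 gene SMARCA4 had been knocked out with CRISPR, and cells with a CRISPR knockout of the BRM gene SMARCA2. A SWI/SNF complex, which moves nucleosomes, holds either BRG1 or BRM as its motor subunit. Apart from the edited gene, the labels give all 3 groups the same line and medium, and the parental line is the only control they name. Whether a knockout was 1 clone or a pool, and whether replicates were separate cultures, is not stated in the labels. A p-value below therefore measures no more than the spread among these libraries, which may be technical.

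Matrix metalloproteases are zinc enzymes that cut collagens, laminins and other proteins outside or at the surface of the cell. They are made as inactive precursors and are switched on when the propeptide is cut off, and TIMPs block the active site. MMP14 and TIMP2 have a second tie, since a TIMP2 molecule held by MMP14 at the cell surface docks the MMP2 precursor, which a neighbouring MMP14 then cuts. In lung tumours these enzymes come from the carcinoma cells themselves as well as from fibroblasts and leukocytes around them, whereas here only the cultured line was sequenced.

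Each library held 31969961 to 40679073 estimated reads. SMARCA4 lay at 21.2 to 23.9 CPM (reads scaled for library size and composition) in the BRG1 knockout against 212 to 244 CPM in the parental line, and SMARCA2 at 9.36 to 12.0 against 49.3 to 58.0 CPM in the BRM knockout, as their labels say. BRG1 knockout library 3 stood apart from the other BRG1 knockout libraries, with a chi-square per degree of freedom of 133 and 202 against them, where the pairs within the other 2 groups gave 11.2 to 71.6. Of 8 epithelial markers, 7 in the parental line, 6 in the BRG1 knockout and 7 in the BRM knockout averaged 1 CPM or more. Their summed level was 6429.6 to 6537 CPM in the parental line, 5906 to 7156 CPM in the BRM knockout and 441 to 1298 CPM in the BRG1 knockout.

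All 10 genes passed the filter on low counts, but 4 of them reached its cutoff of 0.268 CPM in 6 libraries or fewer. MMP10 reached it in 4 libraries, 3 of them from the BRM knockout where it was called higher, and TIMP3 in 3, of which 2 were from the BRM knockout. MMP1 reached it in no BRG1 knockout library and MMP2 in no BRM knockout library, so the counts of genes below are a description of the list. In edgeR's quasi-likelihood test with Benjamini-Hochberg adjustment over all 18205 genes tested, 4 of the 10 were higher (MMP2, MMP14, TIMP1 and TIMP2) and 3 lower (MMP1, MMP7 and MMP15) in the BRG1 knockout than in the parental line. Of all genes tested, 43.5% were called in this comparison, 21.6% higher and 21.9% lower. For 7 of the 10 the 2 groups did not overlap, against 53.2% of all genes. Against the same parental libraries, the BRM knockout had 2 higher (MMP10 and MMP15) and 4 lower (MMP1, MMP2, MMP9 and MMP14), where 37.4% of all genes were called, 21.0% higher and 16.4% lower. Its libraries did not overlap the parental ones for 6 of the 10, against 58.1% of all genes. Between the 2 knockouts all 10 differed, 5 higher in the BRG1 knockout (MMP2, MMP9, MMP14, TIMP1 and TIMP2) and 5 lower (MMP1, MMP7, MMP10, MMP15 and TIMP3), against 45.3% of all genes, 21.6% higher and 23.8% lower. All 10 were also without overlap, against 55.1% of all genes. In bulk RNA, fewer cells that express a gene and less RNA per cell cannot be told apart. Asked whether a gene varied at all among the 3 groups, 9 of the 10 did, against 61.7% of all genes, and TIMP3 did not pass (adjusted p = 0.065). The median log2 fold change of the 10 was 0.36 in the BRG1 knockout and 0.04 in the BRM knockout against the parental line, and the median of all genes was -0.01 and 0.09.

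**Figure D1:**
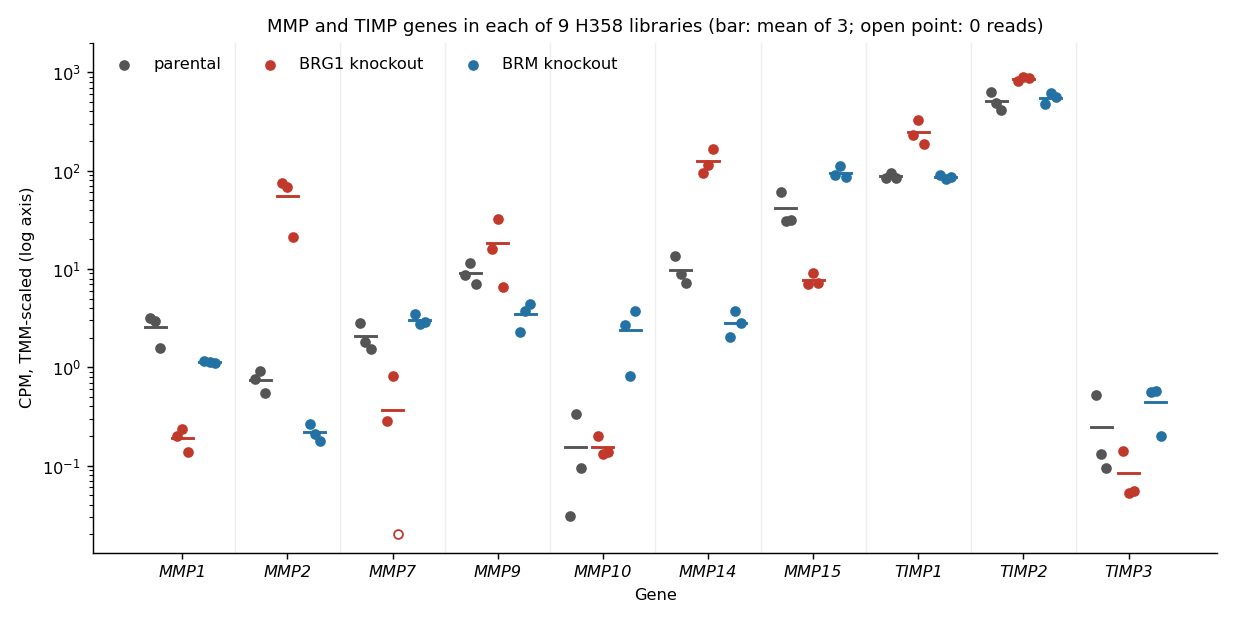
CPM of each gene in each of the 9 libraries on a log axis, with a bar at the mean of each group of 3. MMP2 and MMP14 in the BRG1 knockout lie above both other groups, MMP15 in the BRG1 knockout lies below them, and MMP10 lies highest in the BRM knockout.

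Levels of the 10 listed genes were compared with each other as TPM, which allows for transcript length. MMP genes outside the list were left out of this order. In the parental line TIMP2 (mean 212 TPM) and TIMP1 (203 TPM) came first, with ranges that overlapped. The highest of the listed proteases was MMP15 at 14.5 ± 5.57 TPM (SD, n = 3). MMP9 (6.17 TPM), MMP14 (4.59 TPM) and MMP7 (3.40 TPM) followed, with MMP9 overlapping MMP14 and MMP14 overlapping MMP7. MMP1 was at 2.13 TPM, MMP2 at 0.624 TPM, MMP10 at 0.149 TPM and TIMP3 at 0.0793 TPM. MMP1 overlapped neither MMP7 nor MMP2, while MMP10 overlapped both MMP2 and TIMP3. In the BRG1 knockout MMP14 (63.0 ± 42.4 TPM) and MMP2 (21.9 ± 10.2 TPM) were the first proteases in the order, without overlap between them, and MMP15 (2.40 ± 0.206 TPM) came below MMP9 (10.3 ± 6.19 TPM). MMP15 (32.4 ± 4.66 TPM) was again first in the BRM knockout, followed by MMP7 (4.89 ± 0.658 TPM), and MMP9, MMP10 and MMP14 lay at 2.28, 2.19 and 1.70 TPM with overlapping ranges.

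The interstitial collagenase MMP1, which cuts fibrillar collagen, was lower in both knockouts. It measured 3.19, 2.97 and 1.57 CPM in the parental libraries, 0.199, 0.237 and 0.138 CPM in the BRG1 knockout, and 1.15, 1.14 and 1.11 CPM in the BRM knockout. The 3 groups did not overlap, and the BRG1 knockout libraries, with 5 to 9 reads each, were lowest. The log2 fold change was -3.73 ± 0.41 (SE) in the BRG1 knockout (edgeR adjusted p = 5.7e-05), a level 13.2-fold lower than in the parental line. For the BRM knockout it was -1.18 ± 0.35 (edgeR adjusted p = 0.022), and this call was lost without parental replicate 1 or 2 or BRM knockout replicate 2 or 3 (-1.0 to -1.18, edgeR adjusted p = 0.056 to 0.088). MMP1 was also lower in the BRG1 than in the BRM knockout, by -2.55 ± 0.41 on the log2 scale (edgeR adjusted p = 0.00052).

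MMP10, or stromelysin-2, which cuts proteoglycans and activates other MMP precursors, was higher in the BRM knockout. The parental libraries held 0.0307, 0.339 and 0.0954 CPM, which is 1, 13 and 4 reads. The BRG1 knockout libraries held 0.199, 0.132 and 0.138 CPM, inside the parental range. The BRM knockout libraries held 2.68, 0.813 and 3.72 CPM, from 27 to 147 reads, and none overlapped the other groups. The log2 fold change in the BRM knockout was 3.91 ± 0.74 (15.0-fold, edgeR adjusted p = 0.0023), and 5.12 (edgeR adjusted p = 0.003) without parental replicate 2, which holds most of the parental reads. In the BRG1 knockout it was -0.02 ± 0.82 (edgeR adjusted p = 0.99), a value whose sign changed with the setting. The difference between the 2 knockouts was -3.92 ± 0.74 (edgeR adjusted p = 0.0015).

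The gelatinase MMP2, which cuts type IV collagen and denatured collagen, had the largest fold change of the 10 genes in the BRG1 knockout. Parental libraries were at 0.768, 0.913 and 0.549 CPM, or 23 to 35 reads. The BRG1 knockout libraries were at 75.6, 68.1 and 20.9 CPM, or 755 to 2662 reads, and the BRM knockout libraries at 0.268, 0.211 and 0.177 CPM, or 7 to 10 reads. The 3 groups were separate, and BRG1 knockout library 3 was the lowest of its group. The level in the BRG1 knockout was 73.8-fold that of the parental line (log2 6.21 ± 0.50, edgeR adjusted p = 9.1e-06), and the log2 value was 6.53 without BRG1 knockout replicate 3. With lengths taken into account it was smaller, 5.46 with effective length offsets and 4.92 on log2(TPM + 0.1), and it was larger, 8.67 (edgeR adjusted p = 7.1e-05), when only the transcript MMP2-201 was counted, a setting chosen after the transcript values were seen. The full-length coding transcript MMP2-201 carried 76.9 to 85.3% of the MMP2 reads in the BRG1 knockout, and 2, 10 and 0 reads in the parental libraries. The lower level in the BRM knockout (-1.75 ± 0.59, edgeR adjusted p = 0.039) rests on 83 parental and 24 knockout reads in all, and the call was lost without any single parental or BRM knockout library (-1.56 to -2.01, edgeR adjusted p = 0.052 to 0.12). Counted by MMP2-201 alone, the difference in the BRM knockout was 0.16 ± 1.31 (edgeR adjusted p = 0.94).

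MMP9, the other gelatinase, was at 8.66, 11.4 and 7.06 CPM in the parental line and at 16.0, 32.0 and 6.61 CPM in the BRG1 knockout. BRG1 knockout libraries 1 and 2 lay above the parental range and library 3 below it. The log2 fold change of 1.01 ± 0.47 did not pass (edgeR adjusted p = 0.11). It was 1.35 (edgeR adjusted p = 0.0082) without BRG1 knockout replicate 3 and 0.25 (edgeR adjusted p = 0.64) without replicate 2. MMP9 in the BRM knockout was at 2.28, 3.76 and 4.38 CPM, below every parental library. The difference of -1.38 ± 0.49 was close to the threshold (edgeR adjusted p = 0.047) and was lost without any single parental or BRM knockout library or BRG1 knockout replicate 1 (-1.18 to -1.58, edgeR adjusted p = 0.051 to 0.15). The 2 knockouts differed by 2.39 ± 0.50 on the log2 scale (edgeR adjusted p = 0.003), and by 1.71 (edgeR adjusted p = 0.0078) without BRG1 knockout replicate 2. SLC12A5-AS1, an antisense RNA over MMP9, had 175, 241 and 195 reads in the 3 groups. The labels do not state whether the libraries keep strand, so reads of the 2 genes may be mixed.

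MMP7, or matrilysin, a small protease without the hemopexin domain that epithelial cells make, was lower in the BRG1 knockout. Parental libraries were at 2.83, 1.83 and 1.53 CPM and BRM knockout libraries at 3.51, 2.77 and 2.86 CPM. The BRG1 knockout libraries were at 0.284 and 0.816 CPM and, in library 3, at 0 reads, a count that up to 3 reads would allow. Every BRG1 knockout library lay below the parental and BRM knockout libraries, which overlapped each other. The log2 fold change against the parental line was -2.46 ± 0.76 (edgeR adjusted p = 0.023). The call was lost without parental replicate 1 (-2.17, edgeR adjusted p = 0.066) or BRG1 knockout replicate 1 (-2.36, edgeR adjusted p = 0.072), and without BRG1 knockout replicate 2, which holds 31 of the 41 reads, the value was -3.90 (edgeR adjusted p = 0.0041). Against the BRM knockout the difference was -3.03 ± 0.77 (edgeR adjusted p = 0.0085). BRM knockout and parental libraries differed by 0.57 ± 0.68 (edgeR adjusted p = 0.54).

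**Figure D2:**
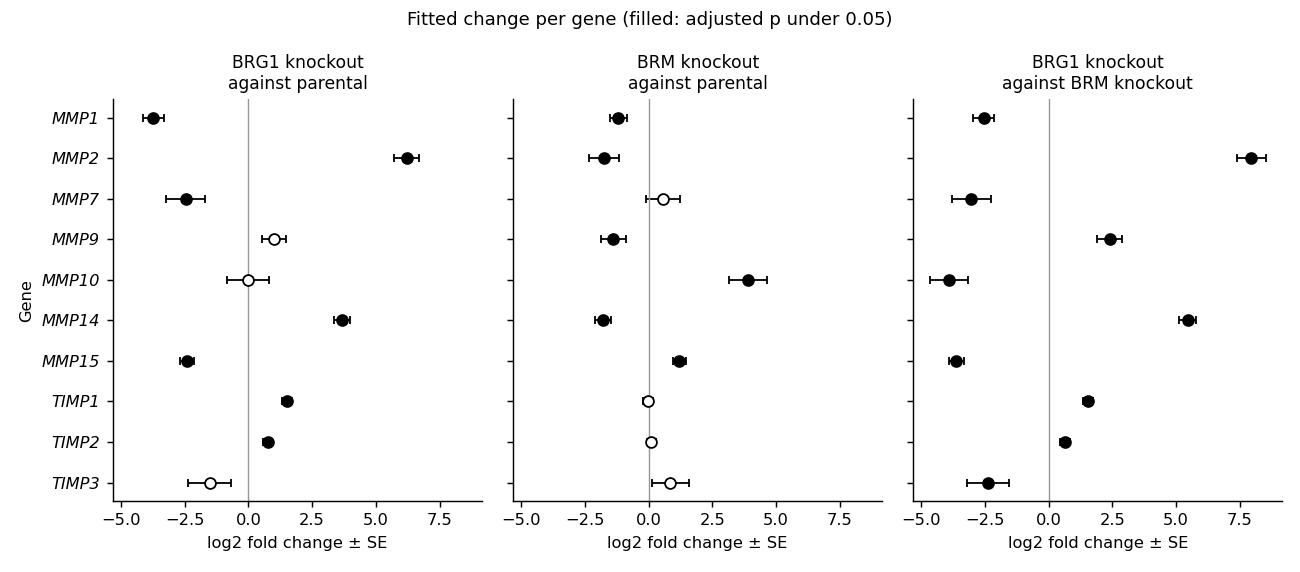
Log2 fold change with its standard error for each gene in the 3 comparisons, with filled points where the adjusted p was under 0.05. MMP2 and MMP14 lie to the right of 0 in the BRG1 knockout and to the left in the BRM knockout, and MMP15 shows the opposite signs.

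MMP1, MMP7 and MMP10 stand in the cluster of MMP genes on the long arm of chromosome 11, between positions 102520508 and 102955734 of the hg38 build that the submitters' notes name. Of its 9 genes in order of position, MMP7 held 226, 41 and 336 reads in the parental, BRG1 knockout and BRM knockout groups of 3 libraries. MMP8, the neutrophil collagenase, held 125, 547 and 1 reads, and MMP10 held 18, 17 and 274. MMP1 held 284, 21 and 125 reads, and collagenase-3, MMP13, at the far end held 3770, 3365 and 10752. MMP20, MMP27, MMP3 and MMP12 had 0 to 6 reads in any group. Neighbours in the cluster thus had different patterns, with MMP8 highest in the BRG1 knockout, MMP1 highest in the parental line and MMP10 and MMP13 highest in the BRM knockout. WTAPP1, a pseudogene on the opposite strand that overlaps MMP1 and MMP10, had 1 read in all.

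**Figure D3:**
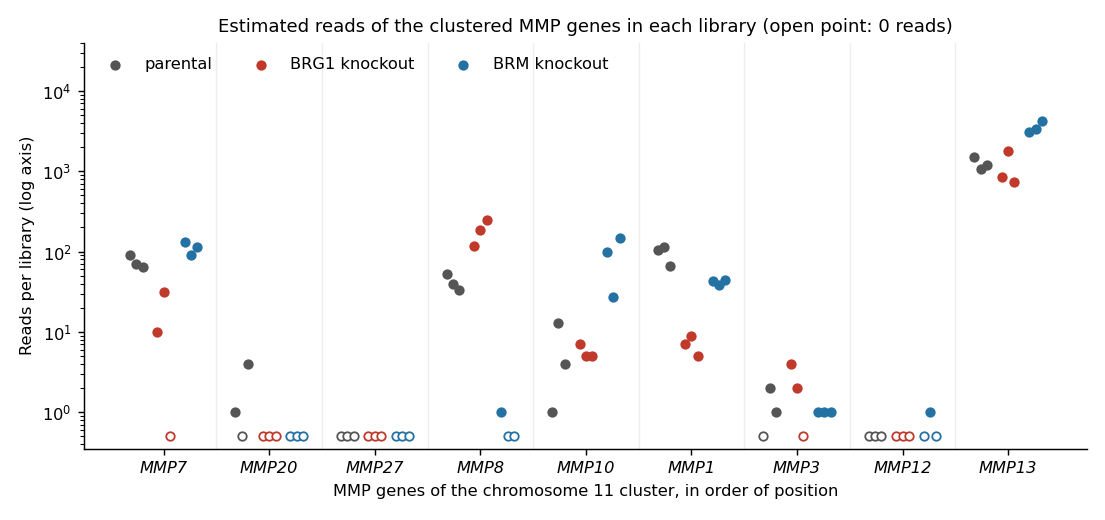
Estimated reads of the 9 clustered MMP genes per library on a log axis, in order of position, with open points at 0 reads. MMP8 has 547 reads in the BRG1 knockout group and 1 in the BRM knockout group, while MMP10 has 17 and 274 reads.

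The promoters of MMP7 and MMP10 are shown because the genes lie in 1 cluster and have similar promoter layouts, but of the pair MMP7 alone was called in the BRG1 knockout and MMP10 alone in the BRM knockout against the parental line. Windows are from RefSeq on GRCh38.p14, which held promoters for 6 of the 10 genes (MMP7, MMP10, MMP14, MMP15, TIMP1 and TIMP3). The MMP7 window is chr11:102530754-102530853 and the MMP10 window is chr11:102780629-102780728, both upstream of the gene on the minus strand, with the AP-1 motif TGANTCA and the TATA motif TATAAA in capitals.
MMP7: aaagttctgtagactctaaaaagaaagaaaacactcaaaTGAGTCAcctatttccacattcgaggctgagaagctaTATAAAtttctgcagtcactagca
MMP10: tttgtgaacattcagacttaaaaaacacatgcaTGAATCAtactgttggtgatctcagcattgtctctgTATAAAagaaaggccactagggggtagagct
In both genes the AP-1 motif begins 67 bases before the RefSeq start, and TATAAA begins 30 bases before it in MMP7 and 31 in MMP10. Searched on both strands, TGANTCA stood in 7.76% and TATAAA in 12.0% of all 27305 promoters of the same 300-base length, and the other 4 promoters of the list held neither. AGGAAG, the core that ETS factors bind, was found at 2 places in MMP7 and none in MMP10, and stood in 33.7% of all promoters. No binding was measured here, so a match describes the letters only.

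The membrane-type proteases MMP14 and MMP15, which are anchored in the plasma membrane and can both activate MMP2, changed in opposite directions in each knockout. MMP14 measured 13.5, 8.82 and 7.23 CPM in the parental line, 94.4, 115 and 165 CPM in the BRG1 knockout and 2.04, 3.70 and 2.81 CPM in the BRM knockout. MMP15 measured 61.3, 31.1 and 31.7 CPM in the parental line, 7.05, 9.0 and 7.22 CPM in the BRG1 knockout and 90.9, 110 and 85.5 CPM in the BRM knockout. For both genes the 3 groups were separate, with MMP14 highest and MMP15 lowest in the BRG1 knockout. MMP14 was 12.7-fold higher in the BRG1 knockout (log2 3.67 ± 0.31, edgeR adjusted p = 1.1e-05) and 3.45-fold lower in the BRM knockout (-1.79 ± 0.30, edgeR adjusted p = 0.0014). MMP15 was 5.33-fold lower in the BRG1 knockout (-2.41 ± 0.27, edgeR adjusted p = 5.8e-05) and 2.31-fold higher in the BRM knockout (1.21 ± 0.25, edgeR adjusted p = 0.004). Between the knockouts MMP14 differed by 5.45 ± 0.34 (edgeR adjusted p = 1.1e-06) and MMP15 by -3.62 ± 0.28 (edgeR adjusted p = 3.9e-06). These calls held in all 21 alternatives tried for each gene. BRG1 knockout library 3 had the highest MMP14, and without it the log2 fold change was 3.35. Part of its 112 TPM, 45.7 TPM, was assigned to the short retained-intron transcript MMP14-202 from 304 reads, and the coding transcript MMP14-201 was at 32.7, 36.1 and 62.6 TPM in the 3 BRG1 knockout libraries.

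The upstream sequence of this pair is shown because the genes moved in opposite directions. The MMP14 window is chr14:22836457-22836556 and the MMP15 window is chr16:58025504-58025565, both on the plus strand, with the GC box GGGCGG or its reverse complement in capitals.
MMP14: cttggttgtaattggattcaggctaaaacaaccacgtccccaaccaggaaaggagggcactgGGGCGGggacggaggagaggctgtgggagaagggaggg
MMP15: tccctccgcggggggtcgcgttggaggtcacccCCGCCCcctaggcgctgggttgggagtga
The MMP14 window covers bases 128 to 29 before the RefSeq start and the MMP15 window bases 250 to 189, so the stretches are not matched. MMP15 matches at 139, 117, 78 and 65 bases before the start lie outside its window. GGGCGG stood in 44.6% of all promoters. The 300-base MMP14 promoter held 1 match and 10 CpG dinucleotides, and the MMP15 promoter held 5 matches and 39 CpG dinucleotides, against a median of 14 CpG over all promoters. The promoters of TIMP1 and TIMP3 held 2 and 5 matches and 16 and 31 CpG, and those of MMP7 and MMP10 held none and 4 and 2 CpG.

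Added over the 7 proteases, MMP transcripts made up 41.2, 29.7 and 23.8 TPM in the parental libraries, 84.0, 81.3 and 130.1 TPM in the BRG1 knockout, and 43.3, 47.8 and 42.9 TPM in the BRM knockout. Both knockouts were above the parental range, the BRM knockout by little (42.9 TPM at the lowest against 41.2 TPM), and the BRG1 knockout was highest. The make-up of the sum also differed. MMP15 supplied 37.9 to 50.8% of it in the parental line, 66.7 to 78.8% in the BRM knockout and 1.97 to 3.03% in the BRG1 knockout. MMP14 supplied 12.3 to 16.4%, 3.01 to 5.43% and 44.9 to 86.0% in the same order, and MMP2 supplied 8.29 to 36.6% in the BRG1 knockout and at most 3.08% elsewhere. The summed TIMP level was 370.1 to 444 TPM in the parental line, 764 to 878 TPM in the BRG1 knockout and 393 to 432 TPM in the BRM knockout. The ratio of TIMP to MMP transcripts was 10.8 to 15.6 in the parental line, 6.27 to 10.8 in the BRG1 knockout and 9.05 to 9.59 in the BRM knockout. The 130.1 TPM sum, the 86.0% MMP14 share and the ratio of 6.27 all belong to BRG1 knockout library 3. In that library 45.7 TPM of the sum was the short transcript MMP14-202, assigned from 304 reads, which raises the sum and lowers the ratio. TIMP transcripts exceeded MMP transcripts in all 9 libraries. These are sums of RNA over the listed genes and were given no test. They leave out other MMP genes, such as MMP13, which averaged 34.2, 30.4 and 97.7 CPM in the parental line, BRG1 knockout and BRM knockout.

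**Figure D4:**
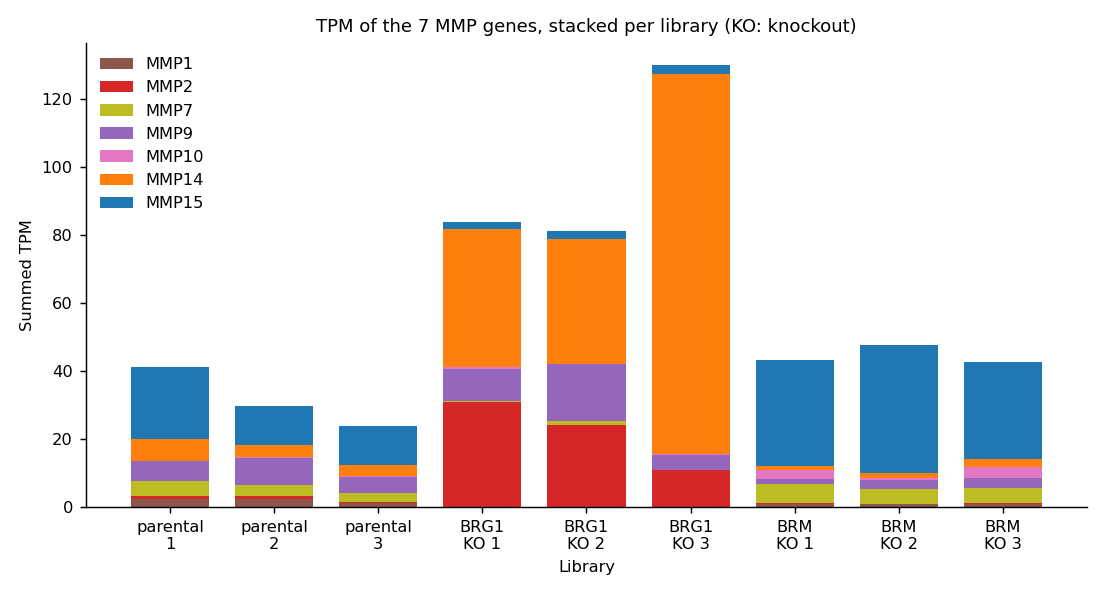
TPM of the 7 MMP genes stacked for each library. MMP15 is the main part in the parental and BRM knockout libraries, and MMP14 with MMP2 the main part in the BRG1 knockout libraries, which sum to 81.3 to 130.1 TPM. In BRG1 knockout library 3, 45.7 TPM of the MMP14 part was assigned to the short transcript MMP14-202.

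TIMP1, a broad inhibitor of secreted MMPs, was at 84.6, 93.9 and 83.4 CPM in the parental line. The BRM knockout gave 90.0, 81.8 and 86.3 CPM, with overlapping values. The BRG1 knockout libraries were at 231, 327 and 187 CPM, all above the other groups. The level there was 2.85-fold that of the parental line (log2 1.51 ± 0.19, edgeR adjusted p = 0.00015) and 2.89-fold that of the BRM knockout (1.53 ± 0.19, edgeR adjusted p = 0.00011). Its log2 fold change in the BRM knockout was -0.02 ± 0.19 (edgeR adjusted p = 0.94), and over the 21 alternatives it ran from -0.15 to 0.03. SYN1, on the opposite strand in whose intron TIMP1 lies, had 7 to 15 reads a group.

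TIMP2, the inhibitor that also bridges MMP14 and the MMP2 precursor, was the inhibitor with the most reads. In TPM, which allows for length, TIMP2 (321 TPM) lay below TIMP1 (498 TPM) in the BRG1 knockout without overlap, and their ranges overlapped in the other groups. By CPM, TIMP2 was at 635, 488 and 412 in the parental line, 824, 891 and 867 in the BRG1 knockout and 480, 619 and 556 in the BRM knockout. The BRG1 knockout libraries lay above all others, and the other 2 groups overlapped. TIMP2 was 1.68-fold higher in the BRG1 knockout than in the parental line (log2 0.75 ± 0.18, edgeR adjusted p = 0.0063) and 1.56-fold higher than in the BRM knockout (0.64 ± 0.18, edgeR adjusted p = 0.014). The BRM knockout and the parental line differed by 0.11 ± 0.18 (edgeR adjusted p = 0.66).

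Part of the TIMP2 difference lay in a transcript with another start. TIMP2-203 begins at position 78874150 of chromosome 17, 51.2 kb downstream of the start of the full-length TIMP2-201 at position 78925387, on the minus strand. Of its 5 exons, 4 are those of TIMP2-201, so the transcripts differ in the first exon alone, which has 122 bases in TIMP2-203. Its annotated reading frame opens in exon 3 and has 143 codons, where that of TIMP2-201 has 220. TIMP2-203 was estimated at 60.9, 27.6 and 62.7 TPM in the BRG1 knockout libraries, at 0.065, 0 and 0.131 TPM in the parental libraries, and at 0 in all 3 BRM knockout libraries. That is 13260 reads against 17 and 0, and 20, 9.54 and 17.0% of the TIMP2 TPM in the BRG1 knockout libraries. TIMP2-204 and TIMP2-205 begin close by, at positions 78874089 and 78874136. TIMP2-204 was at 2.57, 2.01 and 7.36 TPM in the BRG1 knockout and at most 0.924 TPM elsewhere. TIMP2-205 was at 0.178 to 0.571 TPM over all libraries, so low values near this start were estimated in every group. TIMP2-201 was at 211 ± 41.5 TPM in the parental line, 266 ± 30.0 TPM in the BRG1 knockout and 219.9 ± 28.3 TPM in the BRM knockout (SD, n = 3). Its values were 240.3, 259.7 and 299 TPM in the BRG1 knockout and 172 to 255 TPM in the parental line, so that these groups overlapped. Counted by TIMP2-201 alone, the log2 fold change in the BRG1 knockout was 0.51 ± 0.19 against the parental line (edgeR adjusted p = 0.045) and 0.40 ± 0.19 against the BRM knockout, which did not pass (edgeR adjusted p = 0.098). Reads in the shared exons are divided between the transcripts by Salmon's model, whose uncertainty was not used here, so TIMP2-203 was given no test. CEP295NL, which overlaps TIMP2 on the same strand, had 50 to 82 reads a group.

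**Figure D5:**
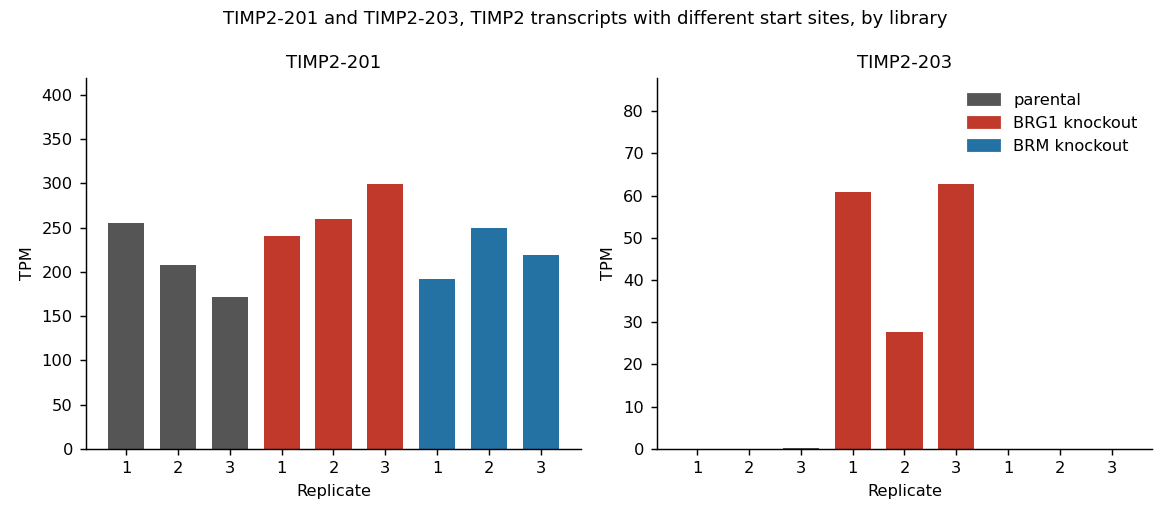
TPM of TIMP2-201 and TIMP2-203 in each library as bars from 0, on separate axes. TIMP2-203 stands at 27.6 to 62.7 TPM in the 3 BRG1 knockout libraries and at 0.131 TPM or less in the other 6.

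TIMP3, which binds the extracellular matrix and also inhibits ADAM proteases, was near the limit of detection in all groups. The parental libraries held 17, 5 and 4 reads (0.522, 0.130 and 0.0954 CPM), the BRG1 knockout 5, 2 and 2 (0.142, 0.0526 and 0.0553 CPM) and the BRM knockout 21, 19 and 8 (0.563, 0.572 and 0.202 CPM). The 2 knockouts did not overlap, and both overlapped the parental line. The difference between the knockouts, -2.38 ± 0.81, passed (edgeR adjusted p = 0.034), but not without BRG1 knockout replicate 2 or 3 or BRM knockout replicate 1 or 2 (-2.13 to -2.16, edgeR adjusted p = 0.081 to 0.1). Against the parental line neither the BRG1 knockout (-1.51 ± 0.84, edgeR adjusted p = 0.17) nor the BRM knockout (0.86 ± 0.72, edgeR adjusted p = 0.37) passed. The remaining family member TIMP4 had 1, 13 and 5 reads in the 3 groups and was not tested.

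The counts for this and the following lists are descriptions, to be read beside the shares of all genes tested. Against the parental line, 43.5% of all genes were called in the BRG1 knockout, 21.6% higher and 21.9% lower. In the BRM knockout 37.4% were called, 21.0% higher and 16.4% lower. The median log2 fold change of all genes was -0.01 and 0.09. Other MMP genes were examined as a list of 16, of which 9 passed the filter. In the BRG1 knockout against the parental line 5 of the 9 were higher, none was lower and 4 did not pass, with a median log2 fold change of 2.13. MMP11, or stromelysin-3, went from 0.735 to 16.9 CPM (log2 4.54 ± 0.43), the membrane-type MMP24 from 0.457 to 7.29 CPM (3.99 ± 0.59), and the epidermal protease MMP28 from 0.674 to 3.75 CPM (2.48 ± 0.69). The MMP28 call was lost without parental replicate 3 (2.32, edgeR adjusted p = 0.061) or BRG1 knockout replicate 2 (1.68, edgeR adjusted p = 0.078). The BRM knockout had 3 higher and 2 lower, and 4 that did not pass, with a median of 0.57. The 3 higher were MMP11 (10.3 CPM, 3.82 ± 0.42), the GPI-anchored MMP17 (from 7.15 to 32.8 CPM, 2.20 ± 0.51) and MMP13 (from 34.2 to 97.7 CPM, 1.51 ± 0.31). The MMP17 call was lost with no filter on low counts (2.11, edgeR adjusted p = 0.055). MMP11 was thus higher in both knockouts, as none of the 10 listed genes was. MMP13 was not called in the BRG1 knockout (-0.17 ± 0.30, edgeR adjusted p = 0.68).

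Inhibitors and clearance factors outside the TIMP family were 10 genes, 9 of them tested. In the BRG1 knockout 6 were higher, none lower and 3 did not pass (median 2.36). They included RECK, a membrane-anchored MMP inhibitor (from 3.14 to 17.7 CPM, log2 2.49 ± 0.30), LRP1, a receptor that takes up MMPs bound to inhibitors (from 83.1 to 529 CPM, 2.67 ± 0.36), and the matrix protein thrombospondin-1, THBS1 (from 259 to 2879 CPM, 3.47 ± 0.45). The BRM knockout had 2 higher, 2 lower and 5 that did not pass (median 0.65). LRP1 was higher there too (579 CPM, 2.80 ± 0.36), the protease inhibitor TFPI2 was lower (from 10.1 to 1.84 CPM, -2.45 ± 0.27), and RECK did not pass (-0.21 ± 0.29, edgeR adjusted p = 0.6).

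Genes that activate or dock MMPs, such as plasminogen activators, furin-type convertases and integrins, were 14, with 13 tested. In the BRG1 knockout 6 were higher, 4 lower and 3 did not pass (median 0.47). The proprotein convertase PCSK5 went from 0.158 to 12.0 ± 12.7 CPM (SD, n = 3; log2 6.21 ± 0.96) and the integrin subunit ITGB3 from 5.32 to 61.2 CPM (3.54 ± 0.72). Of the 4 lower, 2 were convertases, FURIN (from 290.1 to 138 CPM, -1.07 ± 0.17) and PCSK7 (from 57.6 to 32.2 CPM, -0.84 ± 0.15). The others were PLAT (from 114 to 41.6 CPM, -1.46 ± 0.22) and CD44 (from 164 to 72.6 CPM, -1.18 ± 0.20). In the BRM knockout 3 were higher, 2 lower and 8 did not pass (median 0.11), and the 3 were ITGB3 (130 ± 87.9 CPM, 4.62 ± 0.75) and the plasminogen activators PLAT (from 114 to 356 CPM, 1.64 ± 0.22) and PLAU (from 333 to 632 CPM, 0.92 ± 0.24). Leaving out parental replicate 2 or 3 ended the PLAU call (0.79 and 0.78, with an edgeR adjusted p of 0.057 for each).

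AP-1 and ETS transcription factors, which are known to act on MMP promoters, were 15 genes, all tested. In the BRG1 knockout 4 were higher, 4 lower and 7 did not pass (median 0.02). FOS was at 32.8 ± 41.7 CPM against 4.53 ± 0.627 CPM in the parental line (log2 2.85 ± 0.90, edgeR adjusted p = 0.028), a call lost without BRG1 knockout replicate 1 (0.88, edgeR adjusted p = 0.19) or any single parental library (2.78 to 2.97, edgeR adjusted p = 0.081 to 0.094). The epithelial ETS factor ELF3 fell from 109.7 to 9.22 CPM (-3.57 ± 0.44). In the BRM knockout 6 were higher, 2 lower and 7 did not pass (median 0.48), with FOSB up from 0.582 to 10.4 CPM (4.16 ± 0.89) and FOSL1 down from 218 to 46.3 CPM (-2.24 ± 0.27). FOSL1 was lower in the BRG1 knockout too (61.2 CPM, -1.83 ± 0.26, edgeR adjusted p = 0.00031).

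Of 23 matrix substrates 17 were tested, and 7 were higher, 4 lower and 6 not called in the BRG1 knockout (median 0.02), against 4, 2 and 11 in the BRM knockout (median 0.20). Type III collagen, COL3A1, was at 311 ± 371 CPM in the BRG1 knockout against 0.802 CPM in the parental line, so its level varied between BRG1 knockout libraries, and the laminin chain LAMA3 fell from 489 to 37.0 CPM (-3.72 ± 0.57). Of 9 ADAM sheddases, which release membrane proteins, 8 were tested, with 3 higher, 2 lower and 3 not called in the BRG1 knockout and 1, 0 and 7 in the BRM knockout. ADAM8 fell from 96.5 to 14.0 CPM (-2.78 ± 0.17) and ADAM15 from 379.9 to 65.6 CPM (-2.53 ± 0.17) in the BRG1 knockout. Of 19 ADAMTS proteases 12 were tested, with 5 higher, 1 lower and 6 not called in the BRG1 knockout and 2, 4 and 6 in the BRM knockout.

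Markers of cells that could bring MMP RNA were read beside these results. The summed CPM of 9 fibroblast markers was 32.5 to 63.5 in the parental line, 82.8 to 127 in the BRM knockout and 397 to 1034 in the BRG1 knockout, where 6 of the 9 averaged 1 CPM or more and COL3A1 was highest. In the BRG1 knockout this sum was above the parental range, as were MMP2, MMP14, TIMP1 and TIMP2, and the epithelial sum was below it. In the BRM knockout the fibroblast sum was also above the parental range, and COL1A1 (73.5 to 112 CPM) made up most of it. COL1A2 (1.64 to 2.02 against 0.358 to 1.6 CPM) was above the parental range there too. PDGFRA (0.0903 to 0.161 CPM) and PDGFRB (0.151 to 0.304 CPM) were below it, and the other fibroblast markers overlapped it. In the BRM knockout MMP2 and MMP14 were called lower, and TIMP1 and TIMP2 were not called. The part of these markers in the results was not tested. COL1A1 (208 to 283 CPM against 23.2 to 38.6 CPM in the parental line), COL3A1 (84.5 to 739 against 0.417 to 1.32 CPM), PDGFRB (24.8 to 72.7 against 0.365 to 0.768 CPM), PDGFRA (2.84 to 6.78 against 0.891 to 1.02 CPM), THY1 (2.1 to 3.15 against 0.184 to 0.262 CPM) and DCN (0.0553 to 0.526 against at most 0.0307 CPM) lay above the parental range in every BRG1 knockout library. For DCN, BRG1 knockout library 3 and all parental libraries were below the filter cutoff of 0.268 CPM. COL1A2, LUM and FAP in the BRG1 knockout overlapped the parental range. No fibroblast marker was at 0 in every library of a group. The 5 blood markers summed to 1.43 CPM or less in every library. Of 8 macrophage and neutrophil markers, S100A8 and MPO were at 0 in all groups, and the sum was 16.5 to 22.8 CPM in the parental line, 16.3 to 19.5 CPM in the BRG1 knockout and 17.6 to 58.3 CPM in the BRM knockout, led by CD68. The 5 endothelial markers summed to 4.67 to 9.58, 4.55 to 4.73 and 47.9 to 75.5 CPM in the same order, led by KDR. In BRG1 knockout library 3, which had the highest MMP14 and the lowest MMP2 and MMP9 of its group, the epithelial genes EPCAM and CDH1 were at 8.77 and 6.64 CPM, against 38.1 and 47.6 CPM for EPCAM and 78.7 and 86.1 CPM for CDH1 in the other BRG1 knockout libraries.

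Among 14380 protein-coding genes tested, those whose log2 CPM followed each gene most closely over the 9 libraries were found by Pearson's r, as a description of 9 points that share 3 genotypes. For MMP2 they were GLT8D1 (0.998) and PRKAG2 (0.989), for MMP14 TGFB2 and PGF (0.991 each), and for MMP15 CR2 (0.995) and LAT2 (0.994). For MMP7 they were AP1M2 (0.992) and LY6K (0.989), for MMP1 METAP1 and PRDM8 (0.989 each), for MMP9 BAX (0.971) and ARL6IP4 (0.967), and for MMP10 FAM13A (0.950) and QRICH2 (0.946). For TIMP1 they were CNPY2 (0.989) and AP5Z1 (0.988), for TIMP2 ZNF540 and TPST1 (0.963 each), and for TIMP3 SULT1A2 (0.941) and CYP27B1 (0.936). None of the 10 genes had another of them as its closest partner among these many candidates. Between pairs of the 10, r still ran from -0.95 (MMP15 with MMP2 and with MMP14) to 0.96 (MMP2 with MMP14 and with TIMP1).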

How the data were processed

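RNA-seq of 9 H358 libraries was analysed from the deposited Salmon tables, which per the file headers hold, for each transcript, its length, its effective length, the estimated count of reads and TPM. Salmon, DESeq2 and build hg38 are named in the submitters' processing notes; their versions are not given there. Estimated counts of 203746 of 203835 listed transcripts were summed to GENCODE 29 genes, and 89 without a gene (0.00913 to 0.0193% of reads) were left out. Rounded sums went into edgeR 4.0.16 (R 4.3.3) with TMM scaling, filterByExpr, 1 mean per group over all 9 libraries, robust quasi-likelihood F tests with 6 residual degrees of freedom, 2-sided, and Benjamini-Hochberg adjustment over 18205 genes with a threshold of 0.05. The SE is the log2 fold change over the square root of F, an approximation. Deposited TPM, summed per gene, was used for levels between genes, and the authors' transcript rows for transcripts. Coordinates are 1-based.

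Alternatives were other scalings and filters, effective length offsets, DESeq2 1.42.0, limma 3.58.1 (voom, and log2(TPM + 0.1)), 6-library fits, a replicate block and left-out libraries. The genes and lists were chosen with earlier results of these data known. Named from each other list, per comparison, were up to 3 called genes with the largest change whose higher group averaged 1 or more in log2 CPM, and not all are printed. MMP3, MMP12, MMP20, MMP27, genes overlapping the listed ones, TIMP4 and the cell type markers fall outside that rule. So do genes named because they did not pass, and the lower activation and docking genes and FOSL1 in the BRG1 knockout. MMP8 met the rule between the 2 knockouts (log2 8.65 ± 0.70, edgeR adjusted p = 5.4e-06), with 547 reads in the BRG1 and 1 in the BRM knockout.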

Additional observations from a re-analysis of the deposited data

How the results depend on the processing

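Each value was recomputed in 21 alternatives. Over them the number of the 10 genes called was 6 to 8 in the BRG1 knockout, 3 to 6 in the BRM knockout and 8 to 10 between the knockouts, and the number of all genes called was 6150 to 8979, 4540 to 8532 and 6480 to 9432. Leaving out 1 library at a time gave 3 to 6 called genes in the BRM knockout, and 3 without parental replicate 1 or 2 or BRM knockout replicate 2 or 3. MMP10 in the BRG1 knockout changed sign to 0.52 with effective length offsets, 0.44 with limma voom, 0.42 on log2(TPM + 0.1), 1.20 without parental replicate 2 and 0.02 without BRG1 knockout replicate 2. Leaving out 1 library at a time gave -0.46 to 1.20 for it, and in the BRM knockout -0.15 to 0.03 for TIMP1 and -0.03 to 0.29 for TIMP2. In the BRM knockout, TIMP1 changed sign to 0.03 without parental replicate 2 and 0.02 without BRM knockout replicate 2, TIMP2 to -0.03 without parental replicate 3, and MMP2 to 0.16 when counted by MMP2-201 alone. MMP7 in the BRG1 knockout was not called with no filter (-2.54, edgeR adjusted p = 0.058) or in the 6-library fit (-2.47, 0.055). In the BRM knockout, MMP2 was not called with length offsets (-1.49), no filter (-1.84), voom (-1.68) or log2(TPM + 0.1) (-1.0), and MMP9 was not called with no filter (-1.48) or voom (-1.39). TIMP3 between the knockouts was not called on log2(TPM + 0.1) (-0.91). The log2(TPM + 0.1) scale moved the median of all genes in the BRG1 knockout from -0.01 to -0.26 and the share of calls that were higher from 49.7 to 33.8% (between the knockouts from 47.6 to 36.1%), and of the 10 genes only MMP10 changed sign there. The stricter filter and, in the comparisons with the BRG1 knockout, the 6-library fit left MMP10 or TIMP3 untested. Same-numbered libraries did not deviate together (correlations -0.07 to 0.16, 2 of 9 libraries closest to their own number), and a replicate block called 7, 6 and 10 of the 10 genes in the 3 comparisons, and 7486, 6392 and 7802 of all genes. Of 61 values of other genes that the rule names, 51 passed in every alternative, 10 were lost in at least 1 and none changed sign. Of the list counts in the BRM knockout, the ADAM sheddases called went from 1 to 2 in the 6-library fit and without BRM knockout replicate 1, the activation and docking genes from 5 to 3 without parental replicate 2 or 3, and the AP-1 and ETS factors from 8 to 5 without parental replicate 3 or BRM knockout replicate 1.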
